A study of Mus musculus with 45 samples.

Results

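The 31 genes described here encode the enzymes and regulators of cholesterol and fatty acid synthesis. They were taken from a list of symbols, and all 31 were found among the 24421 genes counted in mouse medial prefrontal cortex. The study asked how astrocytes respond to chronic ethanol drinking. RNA was sequenced from cells captured with beads against ACSA2, a surface antigen of astrocytes, and from the homogenate of the same tissue. All mice were C57BL/6J. Ethanol mice were offered 15% (v/v) ethanol every other day over 72 days, and their tissue was taken 24 h after drinking ended. Water mice, the controls, had water over the same 72 days. The 44 libraries were 10 isolated fractions of ethanol mice, 10 isolated fractions of water mice, 12 homogenates of ethanol mice and 12 homogenates of water mice. They came from 24 mice, of which 20 gave both fractions, so replicates were separate animals. An aliquot of 5% of each minced suspension served as homogenate. What was left was dissociated and passed through a 25% Percoll step against myelin before capture. The isolated cells had therefore gone through dissociation and capture, which the homogenate had not.

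Cholesterol does not cross the blood-brain barrier, so the brain makes its own, and in the adult astrocytes are regarded as a main source that supplies neurons. Synthesis runs from acetyl-CoA through mevalonate and isoprenoid diphosphates to squalene, lanosterol and cholesterol, while fatty acids are built from the same acetyl-CoA and then elongated and desaturated. Both routes are switched on by the sterol regulatory element binding proteins, transcription factors that SCAP escorts out of the endoplasmic reticulum when sterols are low and that the INSIG proteins hold back when sterols are high. Myelinating oligodendrocytes also synthesise cholesterol and fatty acids in large amounts.

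Total gene counts were 1028493 to 3248804 in isolated cells of ethanol mice, 504492 to 2938854 in isolated cells of water mice and 3673811 to 9109247 in homogenates. No member was at 0 in any library, and the lowest count of a member was 4 in the isolated cells and 33 in the homogenates. All 31 members passed the low-count filter in every comparison. The isolated fraction held more than astrocytes. In ethanol mice, its mean log2 CPM (read counts per scaled library size) was 8.85 for a list of 14 astrocyte markers against 8.30 in homogenates, 9.51 against 6.18 for 12 oligodendrocyte markers and 8.70 against 5.41 for 10 microglia markers. The 10 neuronal markers averaged 4.63 in isolated cells of ethanol mice against 9.21 in homogenates. In water mice the same lists averaged 9.05 in isolated cells against 8.29 in homogenates for astrocytes, 9.43 against 6.43 for oligodendrocytes, 8.84 against 5.38 for microglia and 4.99 against 9.17 for neurons. No marker of these lists was at 0 in every library. The part of each cell type in the results below was not tested, except through some of the marker lists as covariates in the ethanol comparisons. In bulk RNA a change in the number of cells of a type and a change in RNA per cell cannot be told apart.

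The members took a median of 0.953% of the gene counts in isolated cells of ethanol mice, 0.929% in isolated cells of water mice, 0.483% in homogenates of ethanol mice and 0.492% in homogenates of water mice. One gene accounted for about as many reads as all the others together. Scd2, a stearoyl-CoA desaturase that puts a double bond into newly made fatty acids (chr19:44293674-44306864, GRCm38, plus strand), held a median of 56.3% of the members' counts in isolated cells of ethanol mice and 43.9% in their homogenates. Without Scd2, the other 30 members took 0.413% and 0.417% of the gene counts in isolated cells of ethanol and water mice, and 0.275% in homogenates of either treatment. Levels between genes were compared per kb of merged exon length. On that scale Scd2 stood at 889 ± 110 CPM per kb in isolated cells of ethanol mice, 828.8 ± 147 in isolated cells of water mice, 419 ± 27.9 in homogenates of ethanol mice and 424 ± 55.9 in homogenates of water mice (SD, n = 10, 10, 12 and 12). The next member in homogenates was the paralogous desaturase Scd1, at 74.9 ± 10.1 CPM per kb in ethanol mice and 75.3 ± 16.3 in water mice. In isolated cells the next was Scd1 in ethanol mice, at 77.3 ± 19.6 CPM per kb, and Insig1 in water mice, at 76.4 ± 17.7. The lowest level in each group was that of Fdps, the farnesyl diphosphate synthase, with 2.22 ± 0.918 CPM per kb in isolated cells of ethanol mice and 2.40 ± 0.559 in their homogenates. By the GENCODE M21 annotation its exons overlap those of Gm43738 on the same strand. How reads of shared exons were counted is not given, so the level of Fdps is uncertain to that extent. Most neighbours in the order of levels lay within their spread: of 30 neighbouring pairs, 2 were further apart than the SDs of both genes in isolated cells of either treatment, 7 in homogenates of ethanol mice and 4 in homogenates of water mice. Scd1 and Scd2 are close paralogs, and the sources used here do not say how reads that match both were assigned, which leaves their levels uncertain to that extent.

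The first comparison asked which members were higher or lower in the isolated cells than in the homogenate. In ethanol mice 18 of 31 members were higher and 3 lower, and the other 10 were not called (edgeR quasi-likelihood test, Benjamini-Hochberg adjusted p under 0.05). In the same comparison 39.8% of the 13489 genes tested were higher and 41.9% were lower. In water mice 19 of 31 were higher and 3 lower, against 37.2% and 40.3% of 13434 genes. At an unadjusted p under 0.05 there were 23 members and 82.5% of genes in ethanol mice and 22 members and 78.7% of genes in water mice. The median log2 fold change of the members was 0.29 in ethanol mice and 0.49 in water mice, and that of all genes tested was -0.04 and -0.05. By role, in ethanol mice, 2 of 5 regulators were higher and 2 lower, and 4 of 8 mevalonate and isoprenoid enzymes were higher. Of the 3 enzymes between farnesyl diphosphate and lanosterol 2 were higher, and so were 6 of 8 between lanosterol and cholesterol and 4 of 6 fatty acid enzymes. In water mice the counts higher were 2 of 5, 4 of 8, 2 of 3, 7 of 8 and 4 of 6, with 2 regulators and 1 mevalonate and isoprenoid enzyme lower. The largest differences were those of Srebf1, Msmo1, Insig1, Scd2, Dhcr7 and Idi1, which rose at least 2-fold in ethanol mice. In water mice these 6 and Mvd did so. Such rises were not particular to the members. Of all genes tested, 2746 of 13489 were called higher by at least 2-fold in ethanol mice and 2557 of 13434 in water mice.

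**Figure D1:**
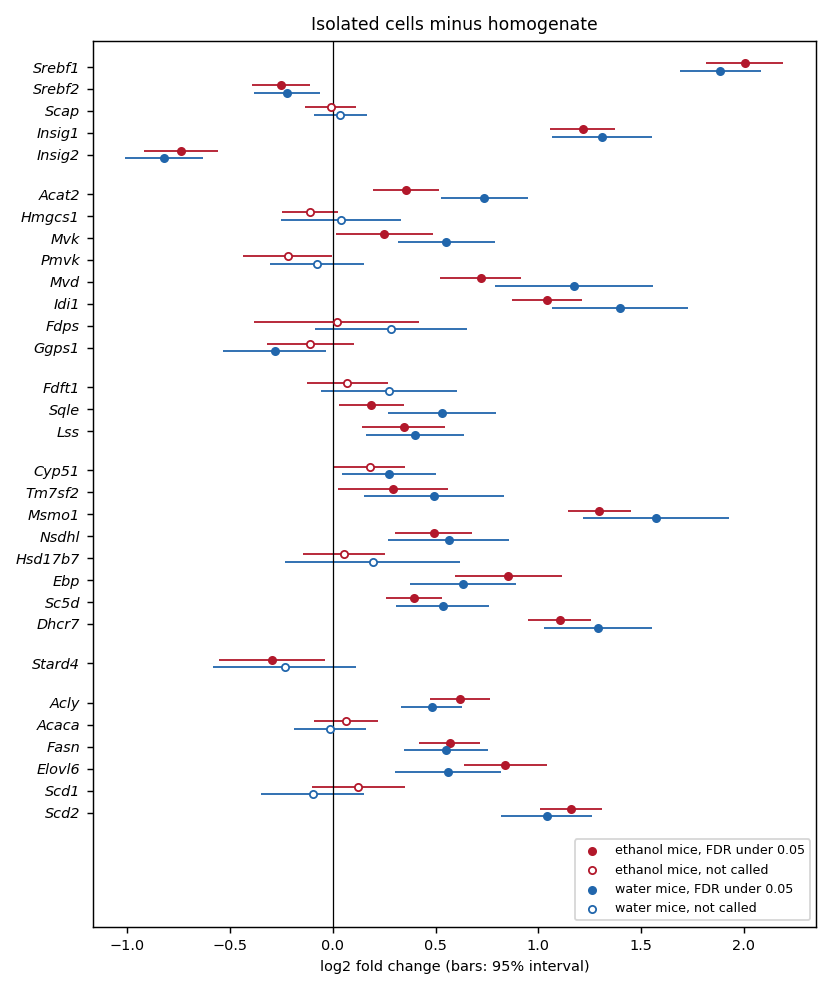
Log2 fold change of isolated cells over homogenate for the 31 members, grouped by role from regulators (top) to fatty acid enzymes (bottom), in ethanol mice (red) and water mice (blue). Filled circles passed an adjusted p of 0.05 and bars are 95% intervals; Srebf1 lies near 2 in both treatments, and Insig2 lies below 0 in both.

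The paired regulators moved apart. Srebf1 encodes the sterol regulatory element binding protein that is best known for driving fatty acid synthesis (chr11:60199089-60222581, minus strand). It had 239.7 to 458 CPM (median 363) in isolated cells of ethanol mice and 79.8 to 113 CPM (median 90.7) in their homogenates, a log2 fold change of 2.01 ± 0.09 (SE; adjusted p = 1.5e-17, edgeR). Every isolated library was above every homogenate, and the same held in water mice, with 256 to 406 CPM (median 347) in isolated cells and 75.9 to 126 CPM (median 100.1) in homogenates. The log2 fold change in water mice was 1.89 ± 0.10 (adjusted p = 3.8e-16, edgeR). Srebf2, whose protein mainly drives cholesterol synthesis, fell in both treatments, by 0.25 on the log2 scale in ethanol mice (adjusted p = 0.00149, edgeR) and by 0.22 in water mice (adjusted p = 0.0124, edgeR). The call in water mice ended under upper-quartile scaling (-0.11, adjusted p = 0.192), after thinning (-0.13, 0.183) and without libraries under 1000000 counts (-0.19, 0.056, edgeR). Within a library, the median log2 ratio of Srebf1 to Srebf2 in CPM was 0.33 in isolated cells of ethanol mice, 0.25 in isolated cells of water mice, -1.95 in homogenates of ethanol mice and -1.79 in homogenates of water mice. Scap, the escort of both proteins, passed in neither treatment, at -0.01 ± 0.06 in ethanol mice and 0.04 ± 0.06 in water mice.

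The pair of INSIG genes differed in the same way. Insig1, itself a sterol-responsive gene in mammals (chr5:28071363-28078662, plus strand), had 186 to 291 CPM (median 225) in isolated cells of ethanol mice and 85.4 to 123 CPM (median 104) in homogenates. In water mice it had 166 to 365 CPM (median 231) in isolated cells and 68.6 to 131 CPM (median 99.1) in homogenates, again with every isolated library above every homogenate. Its log2 fold change was 1.22 ± 0.08 in ethanol mice (adjusted p = 1.9e-14) and 1.31 ± 0.12 in water mice (adjusted p = 8.6e-11, edgeR). Insig2 was the only member with every isolated library below every homogenate, with 20.7 to 34.0 CPM (median 27.8) in isolated cells and 38.3 to 55.6 CPM (median 49.0) in homogenates of ethanol mice. In water mice Insig2 had 19.7 to 32.8 CPM (median 25.2) in isolated cells and 38.8 to 57.3 CPM (median 47.9) in homogenates. Its log2 fold change was -0.74 ± 0.09 in ethanol mice (adjusted p = 1.6e-08) and -0.82 ± 0.09 in water mice (adjusted p = 5.3e-09, edgeR). The median log2 ratio of Insig1 to Insig2 within a library was 2.95 in isolated cells of ethanol mice and 3.10 in those of water mice, against 1.09 and 1.07 in their homogenates.

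Among the sterol enzymes, 12 of 19 were called higher in ethanol mice and 13 of 19 in water mice, of which 3 and 4 were higher by at least 2-fold. Msmo1, the methylsterol monooxygenase that removes methyl groups after lanosterol (chr8:64718139-64733792, minus strand), had 145 to 242 CPM (median 208) in isolated cells of ethanol mice and 76.6 to 93.4 CPM (median 84.9) in homogenates. Its log2 fold change was 1.30 ± 0.07 (adjusted p = 2.2e-15, edgeR). In water mice the range was wider, 102 to 459 CPM (median 226) in isolated cells against 54.2 to 115 CPM (median 87.5) in homogenates. There the ranges overlapped, although the isolated library was the higher one in 10 of 10 mice, with a log2 fold change of 1.57 ± 0.17 (adjusted p = 5.7e-09, edgeR). Dhcr7, which carries out the last reduction to cholesterol, had 62.4 to 105 CPM (median 91.8) in isolated cells and 36.4 to 49.2 CPM (median 44.5) in homogenates of ethanol mice, a log2 fold change of 1.10 ± 0.08 (adjusted p = 1.3e-13, edgeR). In water mice Dhcr7 had 65.7 to 167 CPM (median 108) in isolated cells and 37.1 to 61.03 CPM (median 46.7) in homogenates, a log2 fold change of 1.29 ± 0.13 (adjusted p = 5.0e-10, edgeR). Neither treatment had an isolated library of Dhcr7 within the range of the homogenates.

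The isomerase Idi1, which makes the activated isoprene unit (chr13:8885501-8892451, plus strand), had 54.6 to 92.8 CPM (median 73.7) in isolated cells and 32.6 to 43.3 CPM (median 37.4) in homogenates of ethanol mice. In water mice it had 62.5 to 199 CPM (median 85.3) in isolated cells and 27.3 to 52.7 CPM (median 37.8) in homogenates. The ranges of Idi1 did not overlap in either treatment, with log2 fold changes of 1.04 ± 0.08 in ethanol mice (adjusted p = 3.9e-12) and 1.40 ± 0.16 in water mice (adjusted p = 1.3e-08, edgeR). Mvd, the mevalonate diphosphate decarboxylase one step before Idi1, rose by 0.72 ± 0.10 in ethanol mice (adjusted p = 1.2e-07) and 1.18 ± 0.19 in water mice (adjusted p = 2.6e-06, edgeR), with overlapping ranges. Other steps of the route showed no call. Hmgcs1, the synthase that makes HMG-CoA early in the mevalonate route, averaged 256 ± 31.1 CPM in isolated cells and 291 ± 20.5 CPM in homogenates of ethanol mice (SD, n = 10 and 12), a log2 fold change of -0.11 ± 0.07 (adjusted p = 0.125, edgeR). In water mice it averaged 294 ± 89.2 CPM in isolated cells and 302.5 ± 66.2 CPM in homogenates, a log2 fold change of 0.04 ± 0.14 (adjusted p = 0.815, edgeR). The kinase Pmvk, the synthase Fdps and squalene synthase (Fdft1) also passed in neither treatment, with log2 fold changes between -0.22 and 0.28.

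Most of the other sterol enzymes were higher as well. In both treatments the isomerase Ebp, the dehydrogenase Nsdhl, the desaturase Sc5d, the thiolase Acat2, lanosterol synthase (Lss), the reductase Tm7sf2, mevalonate kinase (Mvk) and squalene epoxidase (Sqle) passed, with log2 fold changes of 0.19 to 0.85 in ethanol mice and 0.40 to 0.74 in water mice. Hsd17b7, the sterol reductase that acts on the ketone left after demethylation, passed in neither treatment, at 0.05 ± 0.10 in ethanol mice (adjusted p = 0.608) and 0.19 ± 0.21 in water mice (adjusted p = 0.397, edgeR). The demethylase Cyp51 stood at 0.18 ± 0.08 in ethanol mice (adjusted p = 0.0502) and was higher in water mice, at 0.27 ± 0.11 (adjusted p = 0.0278, edgeR). Ggps1, which makes the geranylgeranyl diphosphate used to modify proteins, stood at -0.11 ± 0.10 in ethanol mice (adjusted p = 0.324) and was lower in isolated cells of water mice, at -0.28 ± 0.12 (adjusted p = 0.0377, edgeR). The sterol carrier Stard4 was lower in ethanol mice, at -0.29 ± 0.13 (adjusted p = 0.0333), and at -0.23 ± 0.17 in water mice (adjusted p = 0.21, edgeR). No difference between the treatments passed for these genes, as the test of that difference further on shows. With the mouse as a block, the smaller calls in ethanol mice were lost for Mvk (log2 fold change 0.18, adjusted p = 0.214), Sqle (0.17, 0.0517), Tm7sf2 (0.27, 0.125) and Stard4 (-0.28, 0.0848), and Pmvk was called lower (-0.26, 0.0343, edgeR). In water mice the block ended the calls of Cyp51 (0.23, 0.0632) and Ggps1 (-0.28, 0.0897, edgeR).

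Among the fatty acid enzymes Scd2 had the largest difference. It had 3895 to 5614 CPM (median 4883) in isolated cells and 2042 to 2563 CPM (median 2283) in homogenates of ethanol mice, without overlap. In water mice it had 3106 to 5462 CPM (median 4734) in isolated cells and 2007 to 3204 CPM (median 2282) in homogenates, where only the homogenate of mouse 73 reached into the range of the isolated cells. That homogenate also had the highest oligodendrocyte marker level of its group, at 8.22 against a group mean of 6.43 (log2 CPM). The log2 fold change of Scd2 was 1.16 ± 0.07 in ethanol mice (adjusted p = 2.0e-14) and 1.04 ± 0.11 in water mice (adjusted p = 1.1e-09, edgeR). The paralog Scd1 passed in neither, at 0.12 ± 0.11 in ethanol mice and -0.10 ± 0.12 in water mice. The median log2 ratio of Scd2 to Scd1 within a library was 3.75 in isolated cells of ethanol mice and 3.79 in those of water mice, against 2.71 and 2.68 in homogenates. ATP citrate lyase (Acly), fatty acid synthase (Fasn) and the elongase Elovl6 rose by 0.57 to 0.84 in ethanol mice and 0.48 to 0.56 in water mice (log2), and Acly was without overlap in ethanol mice. Acetyl-CoA carboxylase (Acaca), which makes the malonyl-CoA that fatty acid synthase uses, passed in neither, at 0.07 ± 0.08 in ethanol mice and -0.01 ± 0.09 in water mice.

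**Figure D2:**
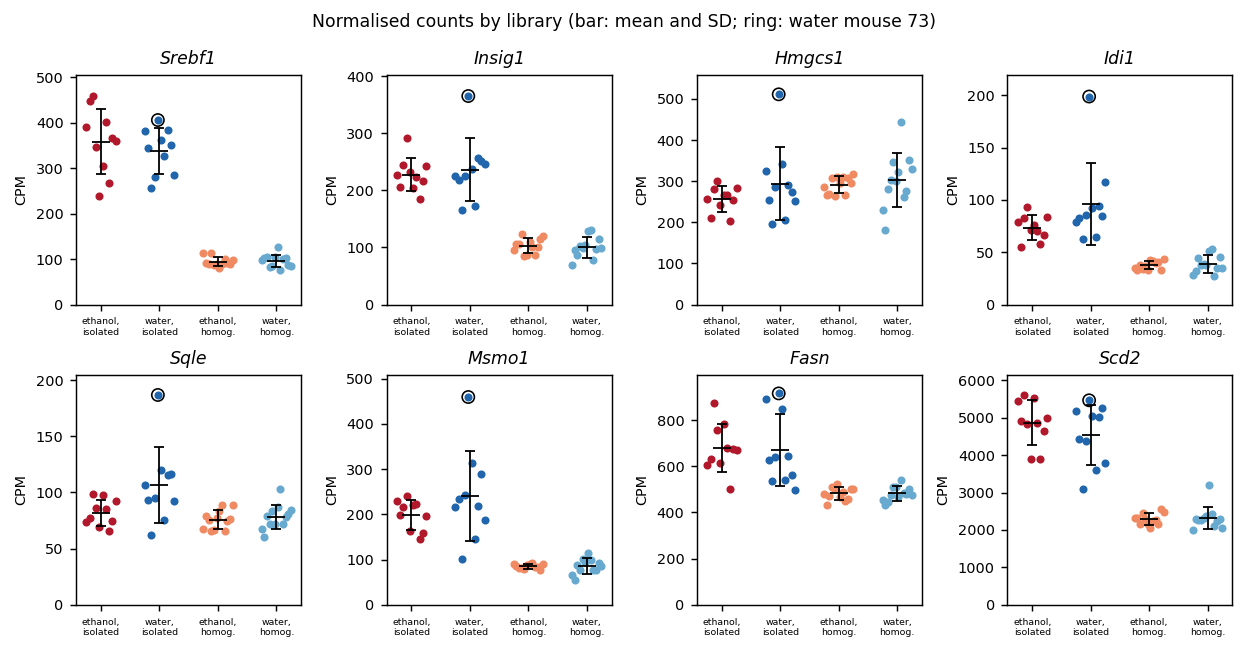
Normalised counts (CPM) of 8 members in each library, by treatment and fraction, with the mean and SD; the ring marks the isolated library of water mouse 73. Srebf1, Insig1 and Idi1 are higher in every isolated library than in any homogenate, Hmgcs1 and Sqle overlap between the fractions, and the ringed library lies at the top of its group in all 8 panels.

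In all, 7 members lay above the homogenates without overlap in ethanol mice, where 19.9% of all genes tested did, and 1 lay below, where 27.2% did. In water mice 4 lay above, against 15.6% of genes, and 1 below, against 22.3%. The share of members called in either direction was thus below that of all genes in both treatments, while the split between directions was 18 to 3 and 19 to 3 for the members and near even for all genes. Beside these values, 12 of 12 oligodendrocyte markers rose with a median log2 fold change of 3.63 in ethanol mice and 3.25 in water mice, 10 of 10 microglia markers with 3.52 and 3.70, and 12 of 14 astrocyte markers in either treatment with list medians of 0.84 and 1.05. Of the remaining astrocyte markers 2 were lower in ethanol mice, and in water mice 1 was lower and 1 was not called. The lowest astrocyte marker was at -2.25 in ethanol mice and -2.135 in water mice. The vessel markers rose too, 8 of 8 mural markers tested with a median of 2.95 in ethanol mice and 2.59 in water mice, and 9 of 9 endothelial markers with 1.43 and 1.38. Neuronal markers fell, 10 of 10 with medians of -4.29 and -4.05. The part of these cells in the members' values was not tested. Upper-quartile scaling shifted the median of all genes to 0.06 in ethanol mice and 0.05 in water mice. It gave 20 members higher and 2 lower in ethanol mice, beside 5828 genes higher and 5174 lower of 13489. In water mice it gave 22 members higher and 1 lower, beside 5464 genes higher and 4931 lower of 13434.

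Neighbouring genes of these pathways were called in both directions. Of 20 other genes of sterol synthesis and uptake, 9 were higher and 8 lower in isolated cells of ethanol mice, and 9 were higher and 5 lower in those of water mice. Mylip, which encodes a ligase that marks the LDL receptor for degradation, rose by 3.40 in ethanol mice and 3.47 in water mice, and the sterol reductase Lbr rose by 1.89 and 1.64 (log2). Among those lower, Dhdds, a subunit of the enzyme that makes the dolichol precursor, was at -0.71 in ethanol mice and -0.60 in water mice, and Pdss1, a subunit of the synthase for the side chain of coenzyme Q, was at -0.85 and -0.88. Among genes of fatty acid supply and elongation 16 of 25 were higher and 7 lower in ethanol mice, with the elongases Elovl1 at 2.46 and Elovl5 at 1.59 and Elovl4 at -2.14. In water mice 14 of 23 were higher and 7 lower, with Elovl1 at 2.34, Elovl5 at 1.57 and Elovl4 at -2.05. Of 17 genes of sterol transport and turnover 12 were higher and 3 lower in either treatment. The lysosomal cholesterol exporters Npc1 and Npc2 were at 2.31 and 2.10 in ethanol mice and 2.12 and 2.15 in water mice, and Cyp46a1, the neuronal enzyme that hydroxylates cholesterol for export from the brain, was at -2.82 and -2.45 (log2).

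The second comparison asked whether ethanol drinking changed the members in isolated cells. No member passed: 0 of 31 were called by edgeR, where 0.0% of 11122 genes were called in either direction. By DESeq2 and by limma voom 0 members were called as well. Over all 11122 genes DESeq2 called 18 higher and 2 lower, and limma voom called 0 in either direction. At an unadjusted p under 0.05 there were 4 members, and 600 genes or 5.39% of all tested. The members with the lowest p were enzymes of the sterol route, all lower in ethanol mice. Squalene epoxidase (Sqle, chr15:59315077-59331192, plus strand), a rate-limiting step after squalene, had 65.9 to 98.7 CPM (median 81.5) in ethanol mice and 62.5 to 187 CPM (median 101) in water mice. Its log2 fold change was -0.40 ± 0.14 (p = 0.00622, adjusted p = 0.573, edgeR), and 0 of 10 ethanol libraries lay above the water mean. Idi1 had 54.6 to 92.8 CPM (median 73.7) in ethanol mice and 62.5 to 199 CPM (median 85.3) in water mice, with a log2 fold change of -0.43 ± 0.16 (p = 0.0133, adjusted p = 0.764, edgeR). Mvd had 23.7 to 44.6 CPM (median 30.6) in ethanol mice and 18.1 to 68.9 CPM (median 39.7) in water mice, a log2 fold change of -0.47 ± 0.20 (p = 0.0223, adjusted p = 0.83, edgeR). Acat2 had 36.5 to 55.8 CPM (median 45.3) in ethanol mice and 35.4 to 68.9 CPM (median 58.3) in water mice, a log2 fold change of -0.27 ± 0.11 (p = 0.024, adjusted p = 0.83, edgeR). The ethanol range lay wholly inside the water range for Sqle, Mvd and Acat2 and reached below it for Idi1, and the water mice were the more variable group for each of the 4.

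The members with the lowest p among those higher in ethanol mice were mostly fatty acid enzymes, none past the threshold. Scd1 had 236 to 582 CPM (median 364) in isolated cells of ethanol mice and 217 to 417 CPM (median 339) in those of water mice, a log2 fold change of 0.20 ± 0.13 (adjusted p = 0.989, edgeR). Ebp had 12.8 to 31.6 CPM (median 24.2) in ethanol mice and 14.5 to 31.2 CPM (median 20.5) in water mice, at 0.19 ± 0.15 (adjusted p = 0.993, edgeR). Acaca had 49.2 to 86.6 CPM (median 66.1) in ethanol mice and 37.8 to 71.8 CPM (median 61.7) in water mice, at 0.10 ± 0.11 (adjusted p = 0.999, edgeR). For these 3 genes the ranges overlapped over most of their length. Acly had 167 to 280.3 CPM (median 209) in ethanol mice and 163 to 219 CPM (median 196) in water mice, at 0.08 ± 0.09 (adjusted p = 0.999, edgeR).

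By role, 17 of the 19 sterol enzymes had an estimate below 0, with a median log2 fold change of -0.18, and 6 of 6 fatty acid enzymes had one above 0, with a median of 0.09. Over all genes the median was -0.00 and 49.6% of estimates were above 0. These counts describe estimates that did not pass the test. The 95% intervals reached a median of 0.28 (log2) to either side of the estimate, all 31 lay within a 2-fold change in either direction and 26 lay within 1.5-fold. These medians depended on which libraries were used. Without the isolated library of water mouse 73, the median of the sterol enzymes was -0.10 and the estimates were -0.27 for Sqle, -0.23 for Idi1 and -0.37 for Mvd. Single libraries also moved small estimates of the fatty acid enzymes by over 1.5 times: Scd1 was 0.10 without ethanol mouse 77, Acaca was 0.05 without water mouse 82 and 0.04 without ethanol mouse 66, and Acly was 0.02 without ethanol mouse 62. Ebp was 0.12 without ethanol mouse 60. Leaving out the isolated libraries under 1000000 gene counts, which are those of water mice 68, 70, 80, 81 and 82, moved the medians the other way, to -0.29 for the sterol enzymes and 0.04 for the fatty acid enzymes, and no member was called.

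No single marker gene of the cell type lists passed the test between treatments in isolated cells, but the estimates of a list mostly shared a sign. Of 14 astrocyte markers 14 had an estimate below 0 in isolated cells of ethanol mice, with a median of -0.28, and so did 10 of 10 microglia markers, with a median of -0.17, and 10 of 10 neuronal markers, with a median of -0.38. On the other side lay the vessel and oligodendrocyte lists. Of 8 mural markers tested 7 had an estimate above 0, with a median of 0.45 and 5 at an unadjusted p under 0.05. So did 9 of 9 endothelial markers, with a median of 0.16, and 10 of 12 oligodendrocyte markers, with a median of 0.06. The mural list had a mean log2 CPM of 6.06 ± 0.26 in ethanol mice and 5.75 ± 0.28 in water mice (SD, n = 10 each; permutation p = 0.0193, two-sided, adjusted p = 0.135 over 7 lists), the only list with a permutation p under 0.05 in that comparison. The part of these lists in the members' estimates was tested only through the covariates below, which leave out the mural list. The astrocyte list had a mean log2 CPM of 8.26 to 9.18 in libraries of ethanol mice and 8.40 to 9.87 in those of water mice (permutation p = 0.197, two-sided, adjusted p = 0.46 over 7 lists). The highest of these was that of water mouse 73, and the next water library was at 9.34 (mouse 74). With the astrocyte list as a covariate, the median of the sterol enzymes was 0.00, Sqle was at -0.17, Idi1 at -0.19 and Mvd at -0.19, and no member was called. Of all 11122 genes that fit called 24 higher and 11 lower. With 4 other lists as covariates (microglia, neuron, endothelial and oligodendrocyte), 4 members were called lower, namely Sqle (log2 fold change -0.50, adjusted p = 0.00255), Idi1 (-0.51, 0.0247), Msmo1 (-0.47, 0.0247) and Mvd (-0.66, 0.0295, edgeR). In that fit 1.61% of all genes were called lower and 0.548% higher. Leaving out water mouse 73 from the fit with 4 covariates ended all 4 calls, with Sqle at -0.34, Idi1 at -0.30, Msmo1 at -0.32 and Mvd at -0.53, and 0.386% of genes called lower and 0.0719% higher. With the oligodendrocyte list alone as a covariate, the median of the sterol enzymes was -0.23 and no member was called, where 2 of 11122 genes were called higher and 0 lower. The choice of covariates thus changed the answer for the same genes, and members were called only with 4 lists and with water mouse 73 included.

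**Figure D3:**
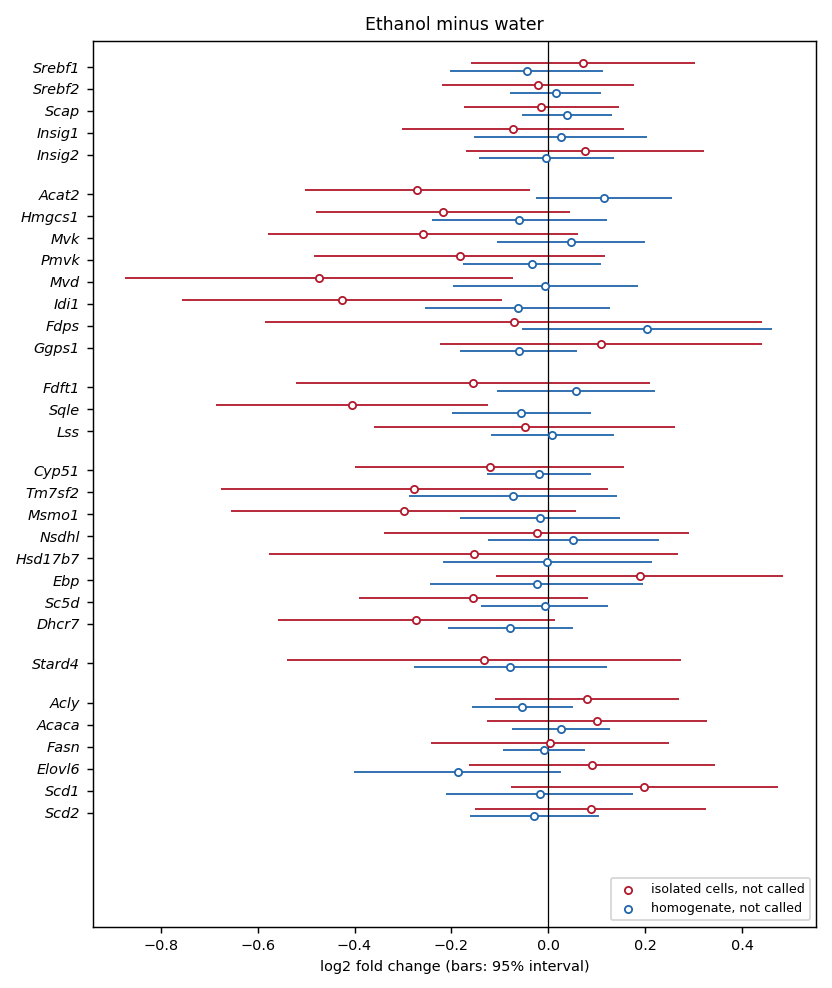
Log2 fold change of ethanol over water for the 31 members, grouped by role, in isolated cells (red) and homogenate (blue), with 95% intervals. Open circles did not pass an adjusted p of 0.05; in isolated cells the sterol enzymes Sqle, Idi1, Mvd and Acat2 have intervals below 0, and in the homogenate every interval includes 0.

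In the homogenate no member passed either, where 0.0% of 13576 genes were called in either direction. By edgeR, DESeq2 and limma voom the count was 0 of 31, and at an unadjusted p under 0.05 it was 0 members and 467 genes, or 3.44%. The elongase Elovl6 had 44.4 to 77.2 CPM (median 64.2) in ethanol mice and 50.6 to 90.9 CPM (median 67.5) in water mice, a log2 fold change of -0.19 ± 0.10 (p = 0.0834, adjusted p = 0.979, edgeR). Acat2 had 31.7 to 45.2 CPM (median 38.4) in ethanol mice and 26.3 to 45.4 CPM (median 35.3) in water mice, at 0.12 ± 0.07 (adjusted p = 0.979, edgeR). Fdps had 6.34 to 13.2 CPM (median 10.1) in ethanol mice and 5.71 to 11.4 CPM (median 8.50) in water mice, at 0.20 ± 0.13 (adjusted p = 0.979, edgeR). All 3 overlapped between treatments. The remaining estimates with the lowest p were Dhcr7 at -0.08, Acly at -0.05 and Ggps1 at -0.06 among those below 0, and Scap at 0.04 and Fdft1 at 0.06 among those above. The homogenates were deeper and less variable, and the intervals were narrower: they reached a median of 0.15 (log2) to either side, and all 31 lay within a 1.5-fold change. The median over the sterol enzymes was -0.02 and that over the fatty acid enzymes was -0.02, against -0.01 for all genes. The marker estimates of the oligodendrocyte lineage shared a sign here. Of 12 oligodendrocyte markers 12 had an estimate below 0, with a median of -0.31 and 0 at an unadjusted p under 0.05, and so did 6 of 6 precursor markers, with a median of -0.17 and 3 under it. The mean log2 CPM of the oligodendrocyte list was 6.18 ± 0.63 in ethanol mice and 6.43 ± 0.63 in water mice (SD, n = 12 each, permutation p = 0.362, two-sided, adjusted p = 0.758 over 7 lists). Its highest water homogenate was that of mouse 73, at 8.22, with the next at 6.85 (mouse 74). The mean log2 CPM of the precursor list was 4.74 ± 0.12 in ethanol mice and 4.91 ± 0.22 in water mice (SD, n = 12 each; permutation p = 0.0291, two-sided, adjusted p = 0.204 over 7 lists). All 8 mural markers tested were above 0, with a median of 0.14. No marker of these lists passed the adjusted test, and their part in the members' estimates was not tested. The other genes of these pathways had 0 calls in either fraction. The lowest unadjusted p among them in isolated cells was that of Aacs, which turns acetoacetate into acetoacetyl-CoA, at -0.38 (p = 0.0183), and in homogenates that of the sterol hydroxylase Cyp27a1, at -0.42 (p = 0.0416, edgeR).

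The difference between these ethanol effects, isolated cells minus homogenate, was tested in 1 model of the 4 groups. It is also the difference of the fraction effects between ethanol and water mice, and it shares its libraries with the comparisons above. No member passed by edgeR, DESeq2 or limma voom. Of 14087 genes edgeR called 0.0%, and DESeq2 called 1 higher and 1 lower. At an unadjusted p under 0.05 there were 3 members and 834 genes (edgeR). Acat2 had a difference of -0.39 ± 0.13 (p = 0.00295, adjusted p = 0.753, edgeR), from an ethanol effect of -0.27 in isolated cells and 0.12 in homogenate. Sqle had -0.35 ± 0.15, Mvd -0.47 ± 0.21 and Idi1 -0.37 ± 0.18, and on the other side Elovl6 had 0.27 ± 0.16 (log2). All 31 intervals lay within a 2-fold difference and 20 within 1.5-fold. With the mouse as a block no member passed in this comparison.

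Between mice of the same treatment, the level of many members correlated with that of the astrocyte marker list in isolated libraries. Deviations of log2 CPM from the treatment mean were correlated with those of each marker list over the 20 isolated libraries, which also share depth and scaling, with a permutation test of 100000 resamples and Benjamini-Hochberg adjustment over 217 pairs of member and list. With the astrocyte list 18 of 31 members correlated positively by r and 0 negatively, and 12 of the 18 passed by rho as well. Those that did not were Srebf1, Insig1, Pmvk, Mvd, Idi1 and Hsd17b7. The median r was 0.612 for the members and 0.059 for all 11122 genes. An r above 0.6 was found for 17 of 31 members and 7.15% of genes. Msmo1 had r = 0.874 (adjusted permutation p = 0.000723, from the smallest p the resamples can give) and rho = 0.818 (adjusted permutation p = 0.00434), and r = 0.819 without the 2 libraries farthest from the median of the list. Within treatments its r was 0.909 in ethanol mice and 0.894 in water mice. Sqle followed with r = 0.856 (adjusted permutation p = 0.00108) and rho = 0.728 (0.00848), and Elovl6 with r = 0.846 (0.000723) and rho = 0.728 (0.00848). Without the 2 farthest libraries their r was 0.755 and 0.776. Scd2 stood at r = 0.789 (adjusted permutation p = 0.000868) and rho = 0.731 (0.00579), with r = 0.777 without 2 libraries. Insig1 and Idi1 rested on those 2 libraries, with r falling to 0.341 and 0.296, against 0.672 and 0.675 over all 20. Stard4, Ebp, Fdps and Ggps1 had r of at most 0.098 with the list.

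The microglia list gave the mirror image. Of the 31 members 13 correlated negatively with it by r and 0 positively, with a median r of -0.532 against -0.056 for all genes, and all 13 were among the 18 that followed the astrocyte list. By rho 8 of the 13 passed, without Srebf1, Idi1, Fdft1, Msmo1 and Sc5d. An r below -0.6 with the microglia list was found for 13 of 31 members and 5.7% of genes. Srebf2 had r = -0.844 (adjusted permutation p = 0.000723) and rho = -0.883 (0.00217), with -0.779 without 2 libraries and -0.841 in ethanol mice and -0.849 in water mice. Elovl6 had r = -0.812 (adjusted permutation p = 0.0015), Sqle -0.810 (0.00155) and Scd2 -0.803 (0.000868), with rho of -0.758, -0.732 and -0.814. Without 2 libraries the r of these 3 was -0.702, -0.643 and -0.743. The astrocyte and microglia lists themselves correlated at r = -0.896 in these libraries (rho = -0.818, adjusted permutation p = 0.00021 over 21 pairs of lists), and at -0.828 without 2 libraries, so the members' relations to the lists cannot be told apart. Of the other 5 lists 3 gave 1 call each and the neuronal and precursor lists gave 0: Scd2 with the oligodendrocyte list (r = 0.709, adjusted permutation p = 0.013), Stard4 with the mural list (0.630, 0.0328) and Acaca with the endothelial list (-0.604, 0.0252). None of these 3 passed by rho, with adjusted permutation p of 0.141, 0.13 and 0.101, and without 2 libraries r was 0.590, 0.418 and -0.394. Without water mouse 73, 14 members passed with the astrocyte list and 10 with the microglia list, and with the oligodendrocyte list 5 passed positively and 1 negatively.

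**Figure D4:**
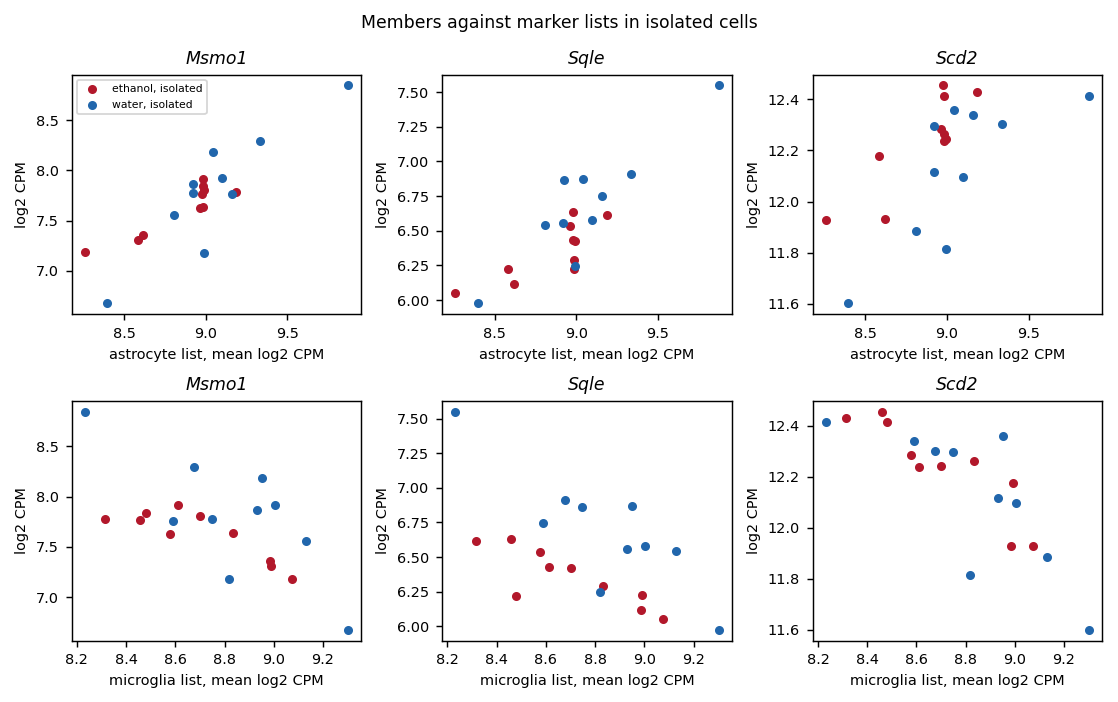
Log2 CPM of Msmo1, Sqle and Scd2 in the 20 isolated libraries against the mean log2 CPM of the astrocyte list (upper row) and of the microglia list (lower row), ethanol mice in red and water mice in blue. The 3 genes climb with the astrocyte list and decline with the microglia list, and water mouse 73 is the point farthest right in the upper row and farthest left in the lower row.

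In the 24 homogenates the astrocyte list gave 0 calls by r or by rho, with a median r of -0.150 for the members against -0.010 for all genes. Larger medians were found with the neuronal list, where 27 of 31 members had a positive r, with a median of 0.307 against 0.069 for all genes, and with the oligodendrocyte list, where 24 of 31 were positive with a median of 0.297 against -0.001. Of all 13576 genes 56.26% had a positive r with the neuronal list and 49.87% with the oligodendrocyte list. An r above 0.6 was found for 3 of 31 members and 8.17% of genes with the neuronal list. With the oligodendrocyte list it was found for 5 of 31 members and 2.18% of genes. The calls were few and spread over lists. Scd1 (r = 0.731, adjusted permutation p = 0.0315) and Idi1 (0.618, 0.0315) followed the oligodendrocyte list, Stard4 the neuronal list (0.691, 0.038) and Scap the microglia list (0.634, 0.038), and Elovl6 ran against the endothelial list (-0.589, 0.0495). Without the 2 farthest libraries these r were 0.589, 0.505, 0.415, 0.662 and -0.410. By rho none passed, at adjusted permutation p of 0.277, 0.117, 0.248, 0.0651 and 0.232.

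The members also varied with each other. In isolated cells 163 of 465 pairs of members correlated positively and 0 negatively (permutation test of r, adjusted over the 465 pairs), and 107 of the 163 passed by rho as well. The median r was 0.405 for member pairs and 0.004 for all pairs of genes. The highest was Insig1 with Idi1, at r = 0.913 (adjusted permutation p = 0.000332) and rho = 0.791 (0.00301), with 0.819 without 2 libraries, 0.841 in ethanol mice and 0.935 in water mice. Hmgcs1 with Sqle had r = 0.912 and rho = 0.815, Sqle with Msmo1 0.906 and 0.762, and Fdft1 with Msmo1 0.889 and 0.752. The adjusted permutation p of r was 0.000332 for each of these 3 and r was 0.787, 0.770 and 0.744 without 2 libraries. The most connected genes were Cyp51 and Sqle, each with 19 partners of 30, and Ggps1, Tm7sf2, Nsdhl, Ebp and Stard4 had none. The lowest r were those of Mvk with Ggps1, at -0.463 (rho = -0.459, adjusted permutation p = 0.104), and Fdps with Nsdhl, at -0.375 (rho = -0.156, adjusted permutation p = 0.197). Pairs of sterol genes had a median r of 0.358, pairs of fatty acid enzymes 0.485 and mixed pairs 0.417. Since most of these genes also followed the astrocyte list, shared cell content and shared control cannot be told apart in these values. Without water mouse 73 the calls were 120 positive and 1 negative, with a median r of 0.358.

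In the homogenates 103 pairs correlated positively and 5 negatively, of which 58 and 4 passed by rho as well, with a median r of 0.299 against 0.006 for all pairs. Sterol pairs had a median r of 0.459 there and fatty acid pairs 0.254. With log2 CPM scaled by total counts the medians were 0.357 and 0.321, and the difference between the kinds of pair was not tested. Acat2 with Fdft1 had r = 0.927 (adjusted permutation p = 0.00155) and rho = 0.852 (0.00232), with 0.864 without 2 libraries, 0.898 in ethanol mice and 0.946 in water mice. Acat2 with Sqle, Hmgcs1 with Msmo1 and Hmgcs1 with Mvd had r of 0.815, 0.815 and 0.813 (adjusted permutation p = 0.00186, 0.00431 and 0.00155), rho of 0.773, 0.707 and 0.770 and r of 0.672, 0.705 and 0.735 without 2 libraries. Among the regulators Srebf2 had 10 positive partners and Insig1 8, with 0 negative, while Srebf1, Insig2 and Scap had no positive partner. Of the 5 negative pairs 2 held Srebf1, with the sterol reductase Hsd17b7 (r = -0.661, adjusted permutation p = 0.0148, rho = -0.665) and with Stard4 (-0.623, 0.0215, rho = -0.692), 2 held Insig2, with Tm7sf2 (-0.581) and Lss (-0.553), and 1 was Scap with Elovl6 (-0.524). Without 2 libraries the pairs with Srebf1 were at -0.683 and -0.688. Among the water mice, the homogenate of mouse 74 was the highest of its group for 21 of 31 members and that of mouse 68 the lowest for 16. Among the ethanol mice, the homogenate of mouse 78 was the highest for 9 members and that of mouse 63 the lowest for 11.

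**Figure D5:**
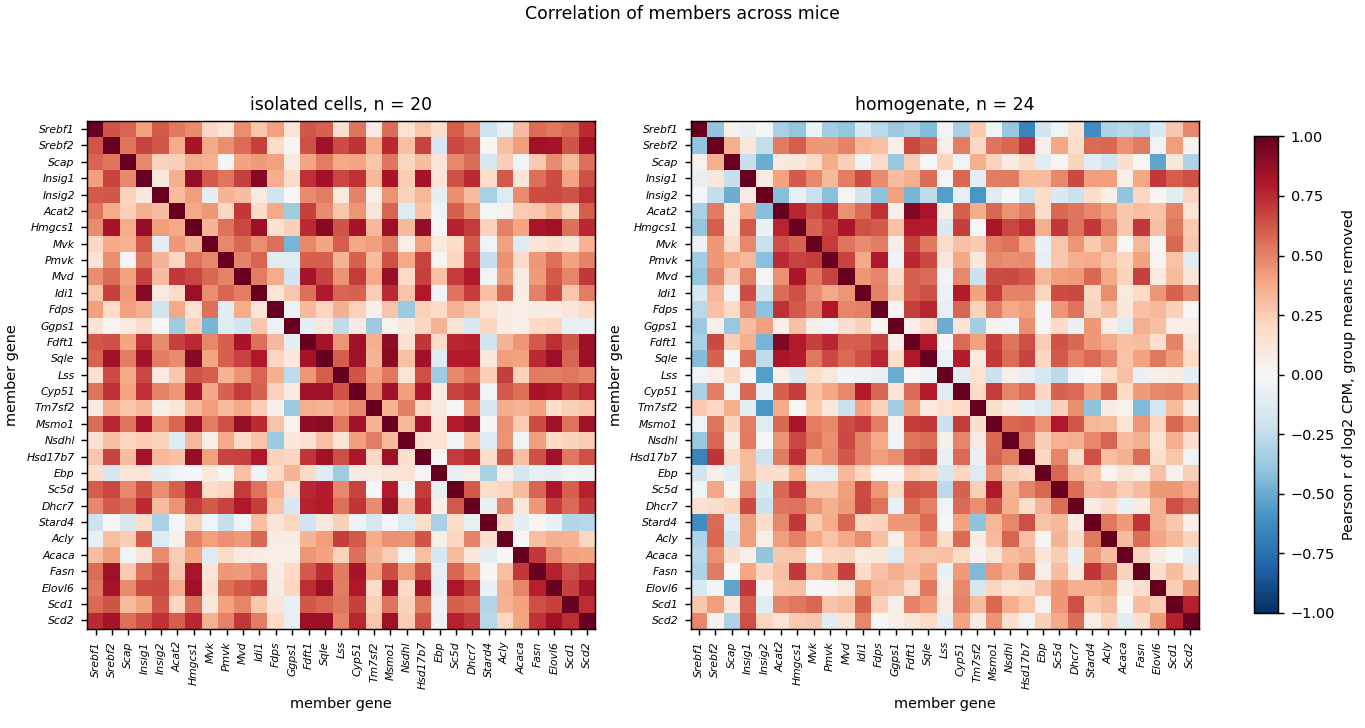
Pearson r between members over 20 isolated libraries (left) and 24 homogenates (right), from log2 CPM with treatment means removed; red is positive and blue negative. In isolated cells no pair is called negative and the rows of Ggps1, Ebp and Stard4 stay pale, while in homogenates the rows of Srebf1 and Insig2 turn blue against the sterol enzymes.

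The promoters of 4 sterol genes from the most tightly correlated pairs in isolated cells are shown, Insig1 with Idi1 and Hmgcs1 and Msmo1, the partners of Sqle. They run from 250 bases before to 50 after the transcription start and come from RefSeq on GRCm38.p6, 5′ to 3′ along the gene. Capitals mark the box CCAAT, bound by the factor NF-Y, on either strand (ATTGG when read on the opposite one), and the letters TCACNCCA, a short form of the sterol regulatory element.
Insig1, chr5:28071162-28071461, plus strand: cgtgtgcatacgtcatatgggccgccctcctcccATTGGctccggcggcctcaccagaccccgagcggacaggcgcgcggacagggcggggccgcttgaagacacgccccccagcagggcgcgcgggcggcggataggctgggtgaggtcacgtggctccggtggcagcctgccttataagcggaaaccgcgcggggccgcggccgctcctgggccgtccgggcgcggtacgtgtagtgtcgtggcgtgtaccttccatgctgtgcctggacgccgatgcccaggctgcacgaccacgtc
Idi1, chr13:8885356-8885655, plus strand: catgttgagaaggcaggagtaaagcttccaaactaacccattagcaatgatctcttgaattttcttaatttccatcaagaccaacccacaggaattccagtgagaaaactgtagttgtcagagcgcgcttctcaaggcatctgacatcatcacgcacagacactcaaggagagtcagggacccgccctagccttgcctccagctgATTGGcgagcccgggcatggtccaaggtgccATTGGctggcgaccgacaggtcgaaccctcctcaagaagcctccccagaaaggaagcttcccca
Hmgcs1, chr13:119690101-119690400, plus strand: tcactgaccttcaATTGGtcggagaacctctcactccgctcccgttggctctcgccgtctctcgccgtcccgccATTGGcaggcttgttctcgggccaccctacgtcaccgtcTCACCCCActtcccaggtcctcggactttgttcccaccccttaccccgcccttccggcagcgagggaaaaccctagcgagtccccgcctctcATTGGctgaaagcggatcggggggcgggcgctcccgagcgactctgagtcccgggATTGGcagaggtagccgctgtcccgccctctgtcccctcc
Msmo1, chr8:64733529-64733828, minus strand: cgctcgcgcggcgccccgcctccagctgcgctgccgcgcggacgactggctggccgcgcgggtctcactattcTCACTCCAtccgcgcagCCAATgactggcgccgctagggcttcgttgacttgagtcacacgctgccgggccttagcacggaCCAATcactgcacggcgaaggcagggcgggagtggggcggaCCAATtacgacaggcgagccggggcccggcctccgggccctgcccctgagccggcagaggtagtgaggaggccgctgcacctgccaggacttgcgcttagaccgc
Hmgcs1 and Msmo1 carried the letters TCACNCCA, as TCACCCCA 137 bases and TCACTCCA 177 bases before the start, and all 4 windows held at least 1 CCAAT box, nearest at 216 bases before the start in Insig1, 14 in Idi1 and 55 in Msmo1. RefSeq windows were matched for 25 of 31 members. CCAAT was found in 84.0% of the 25 members with a window and in 41.06% of all 27025 genes, on either strand. TCACNCCA was found in 3 of the 25 members (Hmgcs1, Msmo1 and Srebf2) and 4.97% of all genes, and its extension TCACNCCAC in 4.0% (Hmgcs1) and 1.44%. The E-box CACGTG, which the sterol regulatory proteins can also bind, was found in 20.0% and 8.09%. The forms of the element overlap each other by construction. A match is a stretch of letters in this window and not a measured binding site.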

How the data were processed

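The authors deposited unnormalised counts of reads for each gene symbol. Per the labels, the libraries held poly(A) RNA, had 15 PCR cycles and were read as 150 bp pairs. The submitters' processing notes name HTSeq 0.5.3p9, Bowtie2 2.2.5, cutadapt 1.8, Picard 1.141, bcl2fastq 2.17 and DESeq2, and the build mm10. Neither the handling of duplicates, the annotation nor a strand setting of the counting is given in the sources used here. Reads from overlapping genes on opposite strands therefore cannot be told apart. By the GENCODE M21 annotation (GRCm38) 9 members have exons that overlap exons on the other strand, over at most 18.3% of their exon length (Fdft1, with Ctsb). On the same strand, exons overlap for Fdps (with Gm43738), Tm7sf2 (Vps51), Srebf1 (Mir6922) and Scd2 (Mir5114), and how such reads were counted is not given. The labels describe 45 samples, and counts of 44 were used; the isolated fraction of water mouse 72 was not analysed here. The 5 tally lines that name no gene stayed out of library sizes and tests, and reads not aligned made up 37.4% to 90.3% of isolated libraries and 18.0% to 55.2% of homogenates. A floor of 3 counts was 0.923 to 5.95 CPM in isolated libraries and 0.329 to 0.817 CPM in homogenates; such floors cover counting error only, since PCR copies are not independent molecules. Within groups, log2 CPM of any 2 libraries correlated at 0.951 to 0.995, so none was a copy of another.

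Each comparison was fitted over all genes in R 4.3.3 with edgeR 4.0.16 (quasi-likelihood, robust), with TMM scaling and the edgeR expression filter by group, on the libraries of its own groups, and p-values were adjusted by Benjamini-Hochberg over all genes tested. CPM were scaled by TMM over the 44 libraries, and log2 CPM used a prior count of 2. Alternatives were DESeq2 1.42.0, limma 3.58.1 (voom), other scalings, no filter, thinning, single libraries left out, the mouse as a block and marker lists as covariates; the fits and correlations without water mouse 73 were added after seeing the data. The scripts were tested on simulated data. Both fractions of a mouse come from 1 suspension, per the labels, so the mouse number pairs the libraries: deviations from group means correlated with a median of 0.0739 (-0.0317 to 0.148) in the 20 pairs and -0.0031 between other mice. Values per library are given for the 6 largest changes and the 6 lowest p among members in comparisons with calls, and for the 4 lowest p per direction in the others; of the wider lists up to 4 genes are named by lowest p, and others for their role, after their values were seen. The members, lists and marker genes were chosen with earlier results of these data known.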

Additional observations from a re-analysis of the deposited data

Results flagged for a closer look

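Values of the members were screened in the isolated groups for a highest or lowest library far from the rest, by the gap to its neighbour over the range of the group. Groups of 12 were not screened. In 6 of 62 groups of 10 libraries a value stood apart. Chance gives about 1 in 20 only where values are normal and groups independent. The members correlated with each other, so that rate is no yardstick for the 6. Of these 6, 4 belong to the isolated library of water mouse 73, all sterol genes: Insig1 at 365.1 CPM with the next library at 257.3, Hmgcs1 at 511.3 CPM with 340.7, Idi1 at 198.7 CPM with 117.1 and Sqle at 186.8 CPM with 120.0. This library was the highest of its group for 18 of 31 members. It had 2938854 gene counts, the highest astrocyte list level (9.87, log2 CPM) and the lowest microglia list level (8.23) of its group, and their part in these values was not tested. The remaining values were Acly in ethanol mouse 62, at 280.3 CPM with the next library at 223.2, and Fdps in water mouse 80, at 21.75 CPM with the next at 13.25. Fdps had the lowest mean CPM of the members in that group, and the part of counting error in its value was not tested. At the other end, the isolated library of ethanol mouse 76 was the lowest of its group for 17 members and that of water mouse 70 for 18, with astrocyte list levels of 8.26 and 8.40.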

How the results depend on the processing

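In the fraction comparisons the larger differences kept their direction and their call under all alternatives run, from Srebf1 to Mvd and including Insig2. Of the members of ethanol mice, 18 higher and 3 lower became 15 and 5 by DESeq2, 15 and 5 without the low-count filter and 15 and 4 with DESeq2 size factors, and in water mice the 3 lower became 1 under upper-quartile scaling and 1 after thinning. Over all genes of ethanol mice, 5374 higher and 5646 lower of 13489 became 5268 and 5802, 6047 and 6885 of 19733, and 5247 and 5804 in that order. In water mice 5418 genes lower of 13434 became 4931 under upper-quartile scaling and 3304 of 8826 after thinning. Estimates near 0 turned their sign. In ethanol mice Scap became 0.0868 under upper-quartile scaling and 0.0661 after thinning, and Ggps1 became 0.0282 after thinning. Fdps became -0.0097 with DESeq2 size factors, -0.0137 by DESeq2, -0.0309 without the filter, -0.0835 after thinning and -0.0627 with the replicate block. In water mice Scap became -0.0042 and Hmgcs1 -0.0028 without the filter, and Hmgcs1 -0.0062 with the replicate block. Pmvk became 0.0312, Acaca 0.0938 and Scd1 0.0122 under upper-quartile scaling, and without libraries under 1000000 counts Pmvk became 0.0401 and Acaca 0.0533. For ethanol in the homogenate, Ggps1 became 0.0329 after thinning. The cause was not tested. With the mouse as replicate block, 15 members were higher and 3 lower in ethanol mice and 18 and 2 in water mice, and no call changed in the difference of ethanol effects. Over all genes the block gave 5211 higher and 5510 lower of 13340 in ethanol mice and 4737 and 5102 of 13088 in water mice.

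With 1 library left out at a time, 5 uncalled estimates crossed 0: Scap (-0.0476 to 0.0102) and Fdps (-0.138 to 0.1104) in ethanol mice, and Acaca (-0.0323 to 0.0453), Hmgcs1 (-0.0682 to 0.1055) and Hsd17b7 (-0.0071 to 0.288) in water mice, the last 2 without isolated mouse 73. In ethanol mice it ended the call of Mvk (0.17 to 0.25; isolated mice 59, 60, 61, 62, 65 and 78, homogenates 59 to 66), Tm7sf2 (0.24 to 0.29; isolated 60, 61, 62, 65, 66 and 78, homogenates 60, 61, 62, 63, 66 and 77), Sqle (0.15 to 0.18; isolated 61, 62, 66 and 78, homogenates 59 and 75) and Stard4 (-0.27 to -0.22; isolated 59, 60 and 66, homogenates 64 and 77). It called Cyp51 without isolated 59 or 76 or homogenate 64, 65, 66 or 78, and Pmvk without isolated 60, 62 or 66 or homogenate 59, 60 or 63. In water mice it ended Cyp51 (0.22; isolated 73 or 74) and Ggps1 (-0.27 to -0.22; isolated 69, 70, 71, 74 or 81, homogenate 74) and called Fdft1 without isolated 70 or 82 and Stard4 (-0.42) without isolated 73. For ethanol in isolated cells, 4 members were called lower with 4 marker lists as covariates and 0 without water mouse 73. The members that followed the oligodendrocyte list numbered 5 without that library, against 1 with it.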
